A study of Homo sapiens with 6 samples.

Results

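The genes described here code for the enzymes that remove superoxide, hydrogen peroxide and lipid peroxides: the glutathione peroxidases GPX1, GPX2, GPX3, GPX4 and GPX8, the superoxide dismutases SOD1 and SOD2, catalase (CAT), and AIFM2, also called FSP1. They were taken by symbol from GENCODE 29, which gave 9 rows among the 58051 genes of the count table. A second GENCODE gene named SOD2 (ENSG00000285441) has no row in the table used here. Counts came from poly(A) RNA sequencing of OE33, an established epithelial cell line from an oesophageal adenocarcinoma, in 3 untreated cultures and 3 cultures exposed to APX2009 at 15 µM for 24 h. APX2009 is an inhibitor of the redox function of APE1, which besides this function is a nuclease of DNA repair. The series design calls the replicates independent and biological. The control cells were untreated, no vehicle is named, and a single dose, time and cell line were used.

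Superoxide dismutases convert superoxide to hydrogen peroxide, SOD1 mainly in the cytosol and SOD2 in the mitochondrial matrix. Catalase in peroxisomes and glutathione peroxidases in several compartments then reduce the peroxide. GPX4 is the member that reduces peroxidised phospholipids inside membranes and so restrains ferroptosis, an iron-dependent form of cell death. AIFM2 protects membranes by another route, reducing coenzyme Q to a radical-trapping form without glutathione.

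Most glutathione peroxidases of this set are selenoproteins. Their transcripts carry an in-frame TGA codon that is read as selenocysteine, the catalytic residue, whereas GPX8 is known to carry cysteine at that place. The coding sequences below come from GENCODE 29 transcripts and are shown because this site separates GPX8 from the other peroxidases, while the direction of change did not follow it. Capitals mark the selenocysteine codon annotated by GENCODE, and in GPX8 the codon that a protein alignment placed opposite that of GPX4.
GPX1: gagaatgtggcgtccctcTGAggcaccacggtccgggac
GPX2: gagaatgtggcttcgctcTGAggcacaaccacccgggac
GPX3: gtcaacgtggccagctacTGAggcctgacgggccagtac
GPX4: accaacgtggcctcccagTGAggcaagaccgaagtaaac
GPX8: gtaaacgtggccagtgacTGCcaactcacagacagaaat
On GRCh38 these codons lie at 49358132 to 49358134 of chromosome 3 for GPX1 (minus strand), 64942607 to 64942609 of chromosome 14 for GPX2 (minus), 151025469 to 151025471 of chromosome 5 for GPX3 (plus), 1105403 to 1105405 of chromosome 19 for GPX4 (plus) and 55161024 to 55161026 of chromosome 5 for GPX8 (plus). All are exonic and within the coding sequence.

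After APX2009, AIFM2, SOD1, GPX3 and GPX2 were higher and GPX1, GPX8 and GPX4 were lower, while SOD2 and CAT did not pass the test. All 9 genes passed the filter on low counts. Of the 9, 4 rose and 3 fell (edgeR, adjusted p under 0.05), beside 34.7% of all 14773 tested genes, 17.2% higher and 17.4% lower. The median log2 change of the 9 was 0.05, against 0.02 over all tested genes. In 8 of the 9 the treated and untreated levels did not overlap, beside 49.4% of all tested genes. Levels are CPM, counts relative to a library total that TMM had adjusted for composition.

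**Figure D1:**
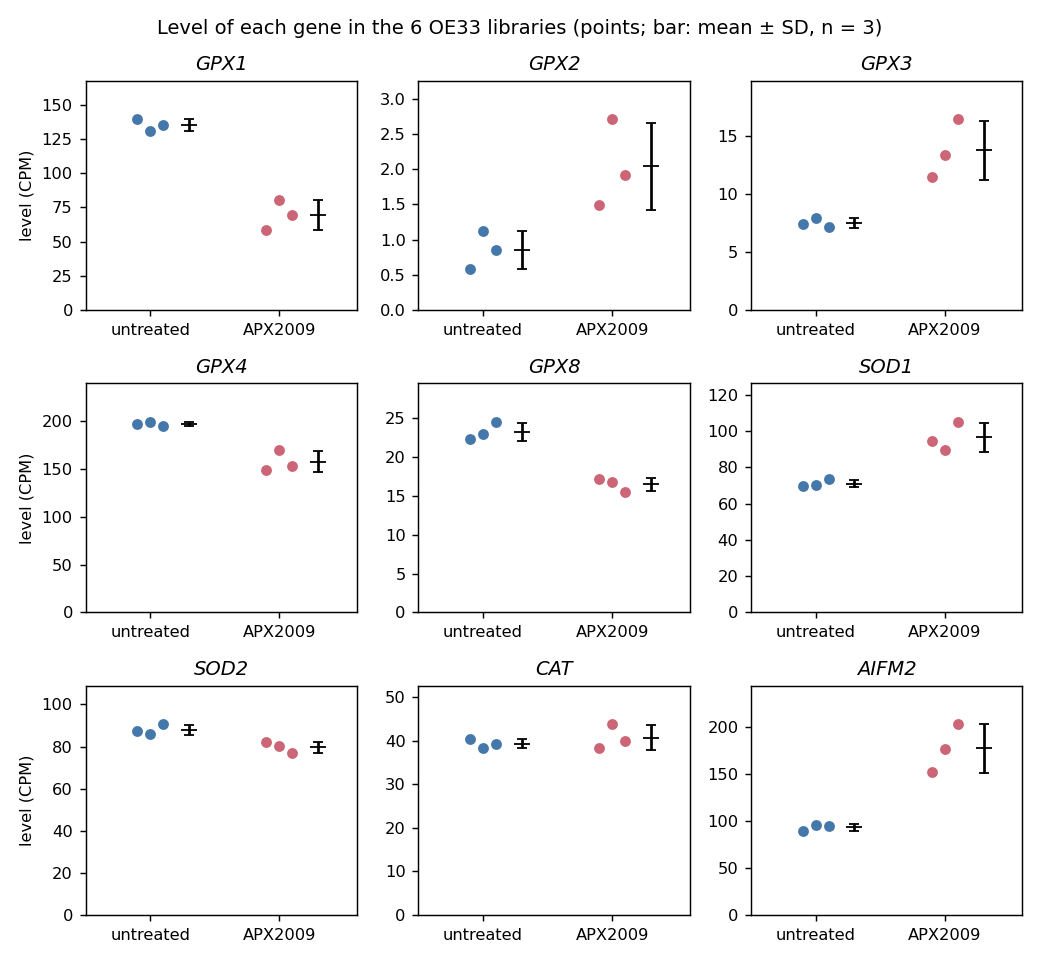
Level in CPM (vertical axis, from 0) of each gene in each library. Points are libraries in the order of replicates 1 to 3, and bars show mean and SD of 3. Treated and untreated points are apart for every gene but CAT.

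The libraries held 21158750 to 26111656 gene counts. APX2009 replicate 1 stood apart, with 25015 genes detected against 21845 to 22446 in the other libraries. Its ERCC spike-ins, synthetic RNAs added to each sample, took 0.315% of counts against 0.48% to 0.752% in the others. When libraries were scaled by the ERCC total in place of TMM, none of the 9 genes passed (edgeR adjusted p = 1 for each of the 7 that had), beside 0.921% of all tested genes, while all 9 log2 changes kept their sign. The changes were about as large under that scaling (GPX1 -0.97, AIFM2 0.93, SOD1 0.51, GPX4 -0.28), and their SEs were 0.49 to 0.63. Without APX2009 replicate 1, 4 of the 9 were higher and 4 lower, with log2 changes of -0.85 for GPX1 and 1.02 for AIFM2. Calls in the whole table also grew without that library, to 5709 genes from 5119 with all libraries. Mitochondrial genes took 0.943% to 2.62% of gene counts in untreated and 2.25% to 4.12% in treated libraries. Of 5 epithelial markers 4 fell, beside 17.4% of all tested genes. The summed level of the 5 went from between 24450 and 25140 CPM to between 13200 and 16580 CPM. Most of that sum was the keratin gene KRT19, with means of 18550 CPM in untreated and 11300 CPM in treated libraries. EPCAM, with means of 447.1 and 446.3 CPM, did not pass. Fibroblast markers (1 of 7 tested) summed to 8.35 to 12.65 CPM in untreated and 9.11 to 19.25 CPM in treated libraries, leukocyte markers (3 of 7 tested, CD68 higher) to 6.81 to 6.99 and 6.99 to 8.13 CPM, and endothelial markers (0 of 4 tested) to 0.0445 to 0.402 and 0.0889 to 2.02 CPM. The upper ends of the treated ranges, 19.25, 8.13 and 2.02 CPM, are all APX2009 replicate 1. That library held all 48 counts of COL3A1, 42 of DCN and 26 of COL1A2 in the table, and 1.35 CPM of VWF against 0.0445 to 0.321 CPM in the other libraries. CD3E and THY1 were at 0 counts in every library and PTPRC in the untreated ones. The part of these shifts in the results below was not tested, and in bulk RNA fewer cells of a type and less RNA per cell cannot be told apart.

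GPX1 codes for the main glutathione peroxidase of the cytosol and mitochondria (ENSG00000233276, chromosome 3, 49357171 to 49358600). It had 139.6, 131.1 and 135.7 CPM in untreated replicates 1 to 3 and 58.2, 80.5 and 69.6 CPM in treated replicates 1 to 3. Every treated library thus lay below every untreated one, and the lowest was APX2009 replicate 1. The mean went from 135.5 ± 4.25 to 69.4 ± 11.2 CPM (SD, n = 3), a 1.95-fold decrease; on the log2 scale this was -0.97 ± 0.10 (SE; edgeR adjusted p = 8.00e-05). GENCODE 29 types this gene as a polymorphic pseudogene although it lists coding transcripts for it. Its processed pseudogene GPX1P1 also drew reads, and over its 606 bases it is 98.2% identical to GPX1, so the counts of these genes are uncertain. The GPX1P1 row went from 24.7 ± 2.12 to 11.9 ± 1.201 CPM, a 2.08-fold decrease (edgeR adjusted p = 4.80e-05), and the sum of both rows had a log2 change of -0.98 (edgeR adjusted p = 3.18e-05).

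GPX4 (ENSG00000167468, chromosome 19, 1103926 to 1106791) had 197.0, 199.0 and 194.7 CPM in untreated and 148.8, 169.4 and 152.6 CPM in treated libraries. The groups did not overlap, although the fall was the smallest among the genes that passed. Its log2 change was -0.33 ± 0.07 (SE, n = 3 per group; edgeR adjusted p = 0.00428), a 1.25-fold decrease.

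GPX8 codes for a peroxidase anchored in the membrane of the endoplasmic reticulum (ENSG00000164294, chromosome 5, 55160118 to 55167071). Untreated libraries had 22.3, 23.0 and 24.6 CPM and treated libraries 17.1, 16.8 and 15.5 CPM, again without overlap. This was a log2 change of -0.50 ± 0.08 (SE, n = 3 per group; edgeR adjusted p = 0.00116), a 1.41-fold decrease.

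GPX3, the secreted glutathione peroxidase found in plasma (ENSG00000211445, chromosome 5, 151020438 to 151028993), moved the other way. It rose from 7.38, 7.95 and 7.16 CPM to 11.5, 13.3 and 16.4 CPM, a log2 change of 0.87 ± 0.14 (SE, n = 3 per group; edgeR adjusted p = 0.00106) and a 1.83-fold increase. GPX2, the peroxidase known from gastrointestinal epithelium and a classic target of the transcription factor NRF2 (ENSG00000176153, chromosome 14, 64939152 to 64942905), was barely expressed. It had 13, 28 and 19 counts in untreated and 40, 61 and 40 in treated libraries, or 0.581, 1.125 and 0.845 CPM against 1.498, 2.71 and 1.92 CPM. The groups did not overlap, and the log2 change of 1.24 ± 0.32 (SE; edgeR adjusted p = 0.0121) was the largest of the 9 but also the least precise, with a 95% interval of 0.54 to 1.94. Without APX2009 replicate 2 it was 0.99 and no longer passed (edgeR adjusted p = 0.0513; range over all alternatives 6.38e-04 to 1).

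SOD1 (ENSG00000142168, chromosome 21, 31659622 to 31668931) rose, with 69.7, 70.1 and 73.6 CPM in untreated and 94.8, 89.7 and 105.3 CPM in treated libraries. The log2 change was 0.44 ± 0.07 (SE, n = 3 per group; edgeR adjusted p = 0.00110), a 1.36-fold increase without overlap between the groups. SOD2 (ENSG00000112096, chromosome 6, 159669057 to 159745186) had 87.1, 85.8 and 90.6 CPM in untreated and 82.1, 80.0 and 76.9 CPM in treated libraries. These groups did not overlap either, but the log2 change of -0.14 ± 0.06 did not pass (edgeR adjusted p = 0.0963), with an unadjusted 95% interval of -0.27 to -0.01. Without APX2009 replicate 1 SOD2 did pass, at -0.17 (edgeR adjusted p = 0.0301; range over all alternatives 0.0301 to 1). On the opposite strand WTAP shares 298 exonic bases with SOD2, and without a known strand setting their reads cannot be told apart there; WTAP had a log2 change of 0.07 (edgeR adjusted p = 0.368).

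CAT (ENSG00000121691, chromosome 11, 34438925 to 34472062) was the only one of the 9 whose groups overlapped. It had 40.5, 38.3 and 39.3 CPM in untreated and 38.2, 43.8 and 39.9 CPM in treated libraries. The log2 change was 0.05 ± 0.07 (SE, n = 3 per group; edgeR adjusted p = 0.649), with a 95% interval of -0.11 to 0.21.

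AIFM2 (ENSG00000042286, chromosome 10, 70098223 to 70132934) shares 11 exonic bases with H2AFY2 on the opposite strand, which had at most 27 counts in a library. AIFM2 itself had 89.2, 95.3 and 94.8 CPM in untreated and 151.7, 176.4 and 202.9 CPM in treated libraries, so the lowest treated value was well above the highest untreated one. The mean went from 93.1 ± 3.36 to 177.0 ± 25.6 CPM (SD, n = 3), a 1.90-fold increase; on the log2 scale this was 0.93 ± 0.10 (SE; edgeR adjusted p = 7.48e-05). In a test against a 1.5-fold change rather than no change, AIFM2 passed among the rises (edgeR adjusted p = 0.0181) and GPX1 among the falls (adjusted p = 0.0133), and the other 7 did not. That test called 4.10% of all tested genes, 2.38% higher and 1.73% lower.

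**Figure D2:**
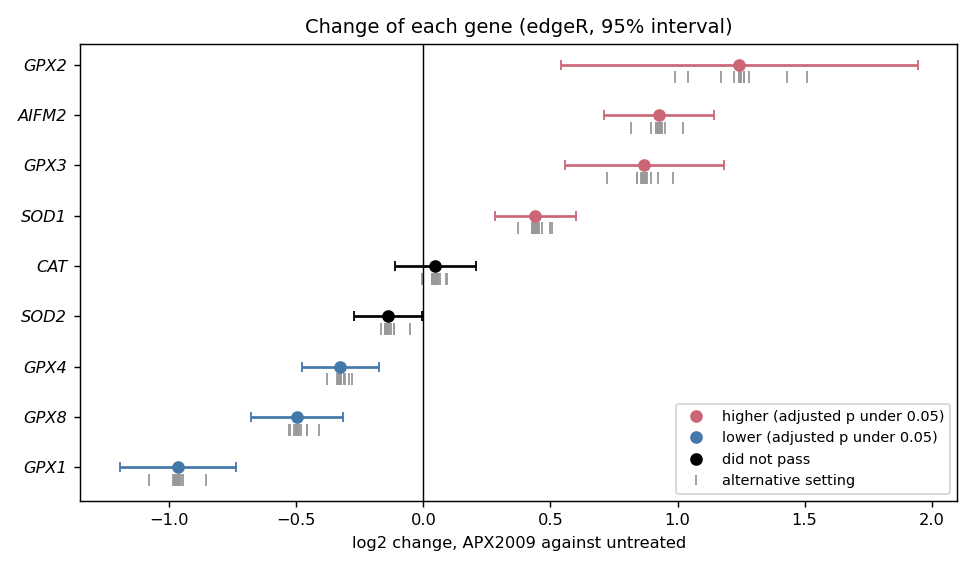
Log2 change of each gene with APX2009 (horizontal axis), as fitted by edgeR with its unadjusted 95% interval. Grey ticks are the values under each alternative scaling, filter, tool, block or left-out library. AIFM2 at 0.93 and GPX1 at -0.97 lie farthest from 0 among the abundant genes.

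The summed level of the 9 genes overlapped between the groups, while the shares of its members differed. Summed levels were 653.4, 651.6 and 661.3 CPM in untreated and 603.8, 672.7 and 681.0 CPM in treated libraries, overlapping ranges. Within that sum, GPX1 and GPX4 together held 51.5%, 50.7% and 49.96% in untreated and 34.3%, 37.1% and 32.6% in treated libraries. AIFM2 alone held 13.7%, 14.6% and 14.3%, and then 25.1%, 26.2% and 29.8%. The SOD genes held 24.3% ± 0.51 and 27.1% ± 2.04 (SD, n = 3) and CAT 6.005% ± 0.16 and 6.24% ± 0.34. Shares are of CPM, in which a long transcript weighs more than a short one, so they compare libraries and not genes. These sums and shares were chosen after the single genes had been seen.

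**Figure D3:**
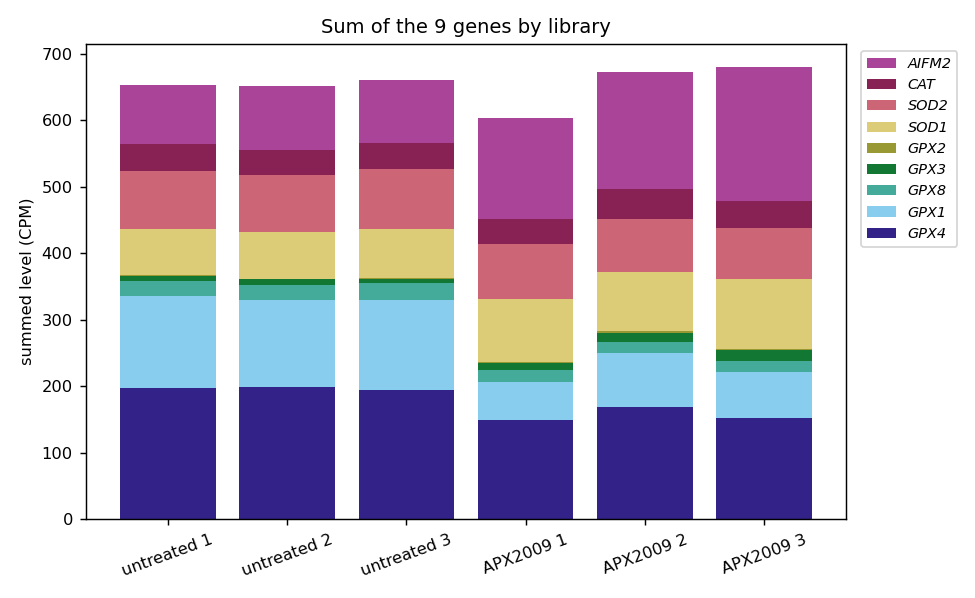
Level in CPM of the 9 genes stacked for each library (vertical axis, from 0). The columns reach 603.8 to 681.0 CPM, and the AIFM2 segment grows as the GPX1 and GPX4 segments shrink in the APX2009 libraries.

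Ratios between genes of the same library do not depend on how libraries are scaled. AIFM2 had 0.453, 0.479 and 0.487 counts per count of GPX4 in untreated and 1.02, 1.04 and 1.33 in treated libraries, a set that does not overlap. For GPX1 relative to GPX4 the ratio was 0.709, 0.659 and 0.697 and then 0.391, 0.475 and 0.456, again without overlap. GPX1 relative to CAT went from 3.45, 3.42 and 3.46 to 1.52, 1.84 and 1.74. The SOD1 to SOD2 ratio went from 0.800, 0.817 and 0.812 to 1.155, 1.121 and 1.369. By contrast GPX3 relative to AIFM2 was 0.0827, 0.0835 and 0.0755 and then 0.0755, 0.0756 and 0.0810, with overlap. With 3 libraries a group, the smallest p that a two-sided exact permutation test can give is 0.1. The first 4 ratios reached this exact p (0.116 adjusted over all 36 pairs of the 9 genes), and GPX3 to AIFM2 did not (exact p = 0.3). Of the 36 pairs 31 did not overlap, but pairs share genes, and 8 of the 9 genes did not overlap singly. Of all tested genes 49.4% did not overlap singly, and no share was taken over pairs of other genes. The ratios shown are a selection from the 36 pairs.

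**Figure D4:**
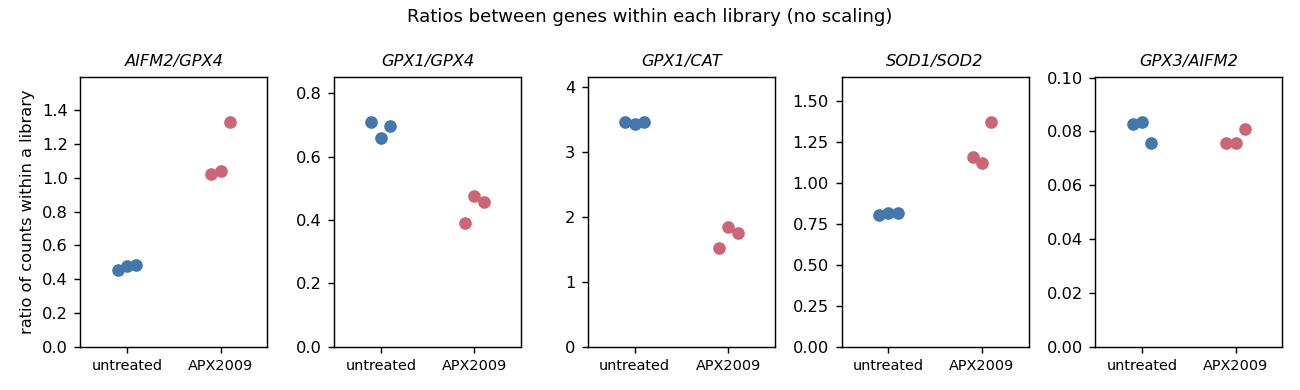
Ratio of raw counts between pairs of genes (vertical axes, from 0), a point per library. AIFM2 to GPX4 lies at 0.453 to 0.487 in untreated and 1.02 to 1.33 in treated libraries, while GPX3 to AIFM2 overlaps.

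Levels can be compared between genes only per length, here as CPM per kilobase of all annotated exons. In untreated cells GPX4 (97.5 ± 1.07) and GPX1 (94.7 ± 2.98, SD, n = 3) were highest and their libraries overlapped. They were followed by SOD1 (35.2), AIFM2 (18.1), CAT (11.0), GPX8 (6.02), SOD2 (5.33), GPX3 (2.37) and GPX2 (0.567), each pair of neighbours without overlap. In treated cells GPX4 (77.7 ± 5.43) stood alone, GPX1 (48.6 ± 7.79) and SOD1 (47.8 ± 3.94) overlapped, and AIFM2 (34.5 ± 4.99) came next without reaching them. CAT (11.3) lay above SOD2 (4.83), GPX3 (4.34) and GPX8 (4.26), of which GPX3 overlapped both others, and GPX2 (1.36) was last. Reads counted for the pseudogene GPX1P1, nearly identical to GPX1, are left out here, so the place of GPX1 beside GPX4 and SOD1 is uncertain. The annotated length also sets this order in part. With the length of each gene's principal transcript GPX4 (214.3) exceeded GPX1 (117.7) in untreated cells and SOD1 (99.99) exceeded GPX1 (60.3) in treated ones. The exons of SOD2 add up to 16493 bases and its principal transcript is also long, at 14266 bases. By that transcript SOD2 lay at 6.16 in untreated and 5.58 in treated cells, below GPX3 (8.40) in the latter. The place of SOD2 is thus uncertain by either length.

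Promoter sequence was compared because GPX2 is a known NRF2 target and rose, as did AIFM2, SOD1 and GPX3. RefSeq promoters on GRCh38.p14, from 250 bases before to 50 after a transcription start, were at hand for 8 of the 9 genes (13 starts; all but SOD1). The core of the antioxidant response element, the site bound by NRF2, was searched as TGACNNNGC on both strands. It occurred in GPX2 and AIFM2 and in no window of the other 6 genes, and in 13.3% of 34943 promoter windows of the same length. The AP-1 site TGACTCA occurred in AIFM2, where it overlaps that core, and in 5.0% of all windows. A GC box (GGGCGG) occurred in 7 of the 8 genes and in 44.9% of all windows. GPX4 and SOD2 had several of the 13 windows, so these counts of genes cannot be set directly against shares of windows. Counted by window, the antioxidant response element core occurred in 1 of GPX2 and 1 of AIFM2 among the 13, a share near the 13.3% of all windows. The matches are shown on each gene's own strand, with the antioxidant response element core, which reads on the opposite strand, in capitals.
GPX2, chr14:64942848-64942877, minus strand: acctgtttttGCTAAGTCAtcctggggatg
AIFM2, chr10:70132828-70132857, minus strand: cagcacgagtGCTGAGTCAcgccccgcccg
Both matches lie inside the GENCODE spans of their genes. Relative to the RefSeq start, the core spans -122 to -114 in GPX2 and -22 to -14 in AIFM2. GPX3, which also rose, held no match for this core in its window, and SOD1, which rose too, had no window to search. A match of letters is no evidence that a factor binds there.

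The rows most like each changed gene were sought among 9765 other genes (log2 CPM averaging 3 or more) by the root mean square difference of log2 levels, taken relative to the untreated mean, over the 6 libraries. AIFM2 was closest to CHPF2 (0.0324) and GBE1 (0.0589), and GPX3 to KLHL21 (0.0595) and, again, CHPF2 (0.0706). GPX1 was closest to ELFN2 (0.0427) and MCM2 (0.0468), GPX4 to SPOUT1 (0.0145) and UCHL5 (0.0201), GPX8 to CPSF2 (0.0286) and APBB2 (0.0356), and SOD1 to EIF1 (0.0243) and CHMP1B (0.0314). GPX2, with its low counts, had no row closer than SAMD5 (0.263) and SPSB1 (0.269). The libraries share 1 treatment contrast, so likeness here is mostly likeness of the change.

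Of 5 tested relatives of the 9 genes 1 passed the test, beside 34.7% of all tested genes. AIFM1, the mitochondrial apoptosis-inducing factor, rose from 75.5 to 98.6 CPM (log2 change 0.39 ± 0.07, SE; edgeR adjusted p = 0.00137), and was the only one of 5 tested to pass. AIFM3 (0.34, adjusted p = 0.0557), GPX7 (-0.78, adjusted p = 0.146), the extracellular dismutase gene SOD3 (0.40, adjusted p = 0.373) and CCS, the copper chaperone of SOD1 (-0.08, adjusted p = 0.516), did not. The list had 2 higher genes with limma voom, the replicate block, the 1 CPM filter and without untreated replicate 1. GPX6 had 0 counts in all libraries and GPX5 had 1, so neither was tested.

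Other selenoprotein genes also moved in both directions, as GPX1 and GPX4 against GPX2 and GPX3 did. Of 14 tested, 6 rose and 4 fell (median log2 change 0.15), beside 17.2% higher and 17.4% lower of all tested genes. The cytosolic thioredoxin reductase TXNRD1 rose from 721.7 to 2660 CPM (log2 change 1.88), SELENOK from 14.4 to 44.8 CPM (1.64), SELENOS from 20.6 to 51.2 CPM (1.31) and SELENOI from 90.0 to 174.4 CPM (0.95). Without untreated replicate 3, 2 genes of the list were lower. SELENOK and SELENOS are membrane proteins of the endoplasmic reticulum that act in degradation from that compartment. The machinery of selenocysteine synthesis and insertion had 4 of 11 genes higher and 4 lower (median -0.02), beside the same shares of all tested genes, which also split about evenly. LRP8, a receptor that takes up selenoprotein P, rose (log2 change 0.89), as did SEPHS2, which makes selenophosphate and is itself a selenoprotein (0.58), and the SECIS-binding SECISBP2L (0.36), while SEPHS1 fell (-0.43). Calls for the lower genes were not stable, with 1 left without untreated replicate 2 or untreated replicate 3 and 2 without APX2009 replicate 3. SECISBP2, which recruits the insertion complex to selenoprotein mRNAs, had a log2 change of -0.02 (edgeR adjusted p = 0.840).

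**Figure D5:**
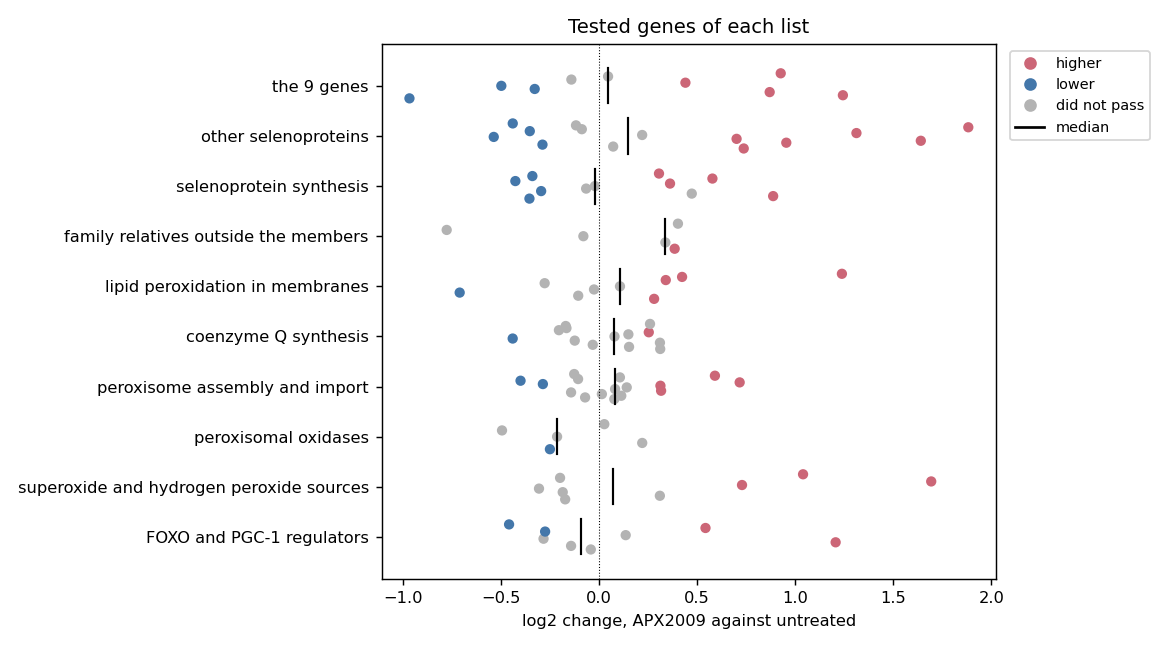
Log2 change with APX2009 (horizontal axis) of every tested gene in the 9 genes and in 9 related lists (rows). Red points rose, blue points fell, grey points did not pass, and black bars are medians, which run from -0.21 for peroxisomal oxidases to 0.34 for relatives of the 9 genes.

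Genes that set the supply of peroxidisable lipid and the ubiquinone pool were read beside GPX4 and AIFM2. Of 9 tested genes of lipid peroxidation 4 rose and 1 fell (median 0.11). POR, the cytochrome P450 reductase, rose from 179.0 to 422.5 CPM (log2 change 1.24), the acyltransferase LPCAT3 from 18.5 to 24.9 CPM (0.42) and the acyl-CoA synthetase ACSL4, which loads polyunsaturated fatty acids into phospholipids, from 35.4 to 43.0 CPM (0.28). The remaining rise was that of GCH1, from 12.4 to 15.7 CPM (0.34). The lipoxygenase gene ALOX5 fell from 106.3 to 65.0 CPM (-0.71), and DHODH (-0.28) did not pass. This list does not separate genes that promote lipid peroxidation from genes that limit it, so its counts give no direction for the process. Without untreated replicate 3, 2 genes of the list were higher. Of 13 genes of coenzyme Q synthesis, which makes the substrate of AIFM2, 1 rose and 1 fell (median 0.08). Among all tested genes 17.2% rose and 17.4% fell. COQ5 fell (-0.44; edgeR adjusted p = 0.00207) and COQ8A rose (0.25; adjusted p = 0.0222), while PDSS2 (0.26) and COQ10B (0.15) did not pass. The call for COQ8A was lost without APX2009 replicate 2 and without each untreated replicate, where 0 genes of the list were higher, and 2 were higher without APX2009 replicate 1.

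Genes that build peroxisomes, the compartment of catalase, were read beside CAT. Of 16 assembly and import genes 4 rose and 2 fell (median 0.08), beside 17.2% higher and 17.4% lower of all tested genes. PEX2 (log2 change 0.72), PEX6 (0.59) and PEX16 (0.31) were higher and PEX26 (-0.40) lower. PEX5, the import receptor for peroxisomal matrix enzymes such as catalase, had a log2 change of 0.11 (edgeR adjusted p = 0.328). Among peroxisomal oxidases, which produce hydrogen peroxide, PAOX (-0.49), ACOX3 (0.22) and DDO (-0.21) did not pass.

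Enzymes that generate superoxide or hydrogen peroxide were mostly below the filter on low counts. Of 19 listed genes 11 were too low to test, among them NOX1, NOX3, NOX4, NOX5 and DUOX2. Of the 8 tested, 3 rose and 0 fell in edgeR (median 0.07), beside 17.2% higher and 17.4% lower of all tested genes. Lower genes numbered 0 with DESeq2, limma voom or at an unadjusted p under 0.05, and 1 without APX2009 replicate 1. With DESeq2, limma voom or no filter, and without any one library but APX2009 replicate 3, 2 were higher in place of 3. Xanthine dehydrogenase XDH rose from 9.27 to 19.1 CPM (log2 change 1.04) and monoamine oxidase MAOB from 1.03 to 1.71 CPM (0.73; adjusted p = 0.0487). MAOA, the other monoamine oxidase, had a log2 change of -0.31 (edgeR adjusted p = 0.150). CYBA, a membrane subunit of NADPH oxidases, was the most counted of the list at 354.2 and 314.5 CPM, with a log2 change of -0.17 (edgeR adjusted p = 0.155).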

How the data were processed

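The deposited table holds whole-number counts per Ensembl gene, not normalized by the authors. Trimmomatic 0.36, STAR 2.5.2b, Subread 1.5.2 with featureCounts, and the build GRCh38 are named per the submitters' processing notes. Strand setting and annotation release were not given in the sources used here. Symbols and positions came from GENCODE 29, which matched 57447 of 58051 gene IDs. Library sizes and tests left out 92 ERCC rows.

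Groups came from the sample titles. Genes were filtered with filterByExpr, scaled by TMM and tested for treatment with edgeR 4.0.16 (quasi-likelihood F-test, R 4.3.3), with Benjamini-Hochberg adjustment over all 14773 tested genes and a threshold of 0.05. SEs were derived from the F statistic. All 9 genes are named, and of each related list the 4 with the smallest p, except items that are not reported here; other genes were picked with their values in view. The 9 genes and the lists were chosen with earlier results of these data known. Alternatives were other scalings, filters, thresholds and tools (DESeq2 1.42.0, limma 3.58.1 voom), a replicate block and leaving out each library. Depth was 21158750 to 26111656 gene counts a library. Sequences were read with Biopython 1.88, exact permutation tests used SciPy 1.17.1, and figures matplotlib 3.10.9.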

Additional observations from a re-analysis of the deposited data

How the results depend on the processing

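Of the 9 genes, 4 higher and 3 lower was also the count with RLE, total-count and upper-quartile scaling, with no filter or 1 CPM in 3 libraries, with DESeq2, limma voom, without mitochondrial and the 20 most counted genes, and with GPX1 and GPX1P1 summed (added after seeing the data). Scaling by the ERCC total gave 0 higher and 0 lower, and 136 changed genes in the whole table against 5119; the spike-in share ran from 0.315% to 0.752% in treated libraries, and the SE of AIFM2 was 0.49 against 0.10. An adjusted p under 0.01 gave 3057 genes, and the test against 1.5-fold gave 606, with 1 of the 9 higher and 1 lower. Leaving out each library gave 3 to 4 higher, 3 to 4 lower and 3503 to 5709 changed genes; CAT, which did not pass, ran from -0.00342 to 0.0880 on the log2 scale, with the negative value without APX2009 replicate 2. With the replicate number as a block, 4 were higher, 3 lower and 5501 genes changed in all. Same-numbered libraries deviated together with correlations of 0.14, 0.078 and 0.006, and not every library correlated best with its own number, so the numbers were not taken as pairs. Counts limit GPX2, with 13 to 61 per library.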

Other observations

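Regulators known to act on SOD2 and CAT were read as a further list. FOXO transcription factors and the PGC-1 coactivators induce antioxidant enzymes in several tissues. The list also held PPARA and PPARG, which belong to neither group. Of 8 tested, 2 rose and 2 fell (edgeR, adjusted p under 0.05, median log2 change -0.09), beside 17.2% higher and 17.4% lower of all tested genes. FOXO4 went from 3.85 to 8.895 CPM (log2 change 1.21 ± 0.13, SE; edgeR adjusted p = 1.08e-04) and PPARGC1A from 6.09 to 8.87 CPM (0.54; adjusted p = 0.00618). PPARG (-0.27) and PPARGC1B (-0.46) fell; the list had 0 lower genes without untreated replicate 2 and 1 without untreated replicate 3. FOXO3, the most counted FOXO gene at 180.8 and 163.9 CPM, did not pass (-0.14; edgeR adjusted p = 0.185), and nor did FOXO1 (-0.04; adjusted p = 0.769).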
